A study of Mus musculus with 8 samples.

Results

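The genes described here are 10 that handle arginine, the urea cycle and nitric oxide: Nos2, Gch1, Arg1, Arg2, Ddah1, Ddah2, Ass1, Asl, Cps1 and Otc. They were taken by gene symbol from a table of raw counts for 56884 annotated genes, and each symbol matched 1 gene. Messenger RNA was sequenced from Lacun3, a mouse lung adenocarcinoma cell line. The STK11 KO group was 4 libraries of Lacun3 cells in which Stk11 had been knocked out with CRISPR. The STK11 WT group was 4 libraries of the parental line. Both groups were grown in the same serum-containing medium without treatment and harvested in logarithmic growth. Stk11 is the gene of the kinase LKB1, which lies upstream of AMPK and its relatives and acts as a tumour suppressor. The labels name a single knockout line and do not say whether it is a clone, so the comparison is between these lines.

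Arginine stands where several pathways meet. Nitric oxide synthases turn arginine into nitric oxide and citrulline and need the cofactor tetrahydrobiopterin, whose synthesis starts with GTP cyclohydrolase. Arginases split arginine into urea and ornithine, and so draw on the same substrate. The complete urea cycle is a feature of liver, while many other tissues hold only its arginine-making part, in which citrulline is returned to arginine.

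Libraries held 21441601 to 25715008 counts in STK11 KO and 18837263 to 21101904 in STK11 WT. A single count was worth 0.0388 to 0.0515 CPM, where CPM is a gene's count relative to the library's total after TMM scaling between libraries. Stk11 itself was at 34.7 ± 0.853 CPM in STK11 KO and 66.3 ± 1.79 CPM in STK11 WT (SD, n = 4 each), so the mRNA was lower in the knockout but far from absent. No replicate pair agreed within sampling noise: chi-square per degree of freedom was 13.0 to 18.9 in pairs with STK11 KO replicate 3 and 3.12 to 8.90 in all other pairs. Epithelial markers were abundant, with Krt8, Krt18 and Cdh1 among 5 of 7 listed markers that reached 10 counts in a library. The lung lineage markers Sftpc, at 0 counts, and Nkx2-1, with 1 count in all 8 libraries, were absent. In bulk libraries, fewer cells of a type and less RNA per cell cannot be told apart.

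Of the 10 genes, 7 had enough counts to be tested, 4 rose and 3 fell. A gene rose or fell if edgeR's quasi-likelihood test, fitted on 13707 genes, gave a Benjamini-Hochberg adjusted p under 0.05. Nos2, Gch1, Arg2 and Asl were higher in STK11 KO, and Ddah1, Ddah2 and Ass1 were lower. Of all tested genes 67.9% passed, 34.4% upward and 33.5% downward, so passing the test is common in this comparison and is not particular to these genes. The remaining 3, Cps1, Arg1 and Otc, had too few counts. In 60.6% of tested genes the 4 STK11 KO values did not overlap the 4 STK11 WT values, and this held for 6 of the 7 genes, the exception being Ddah2.

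**Figure D1:**
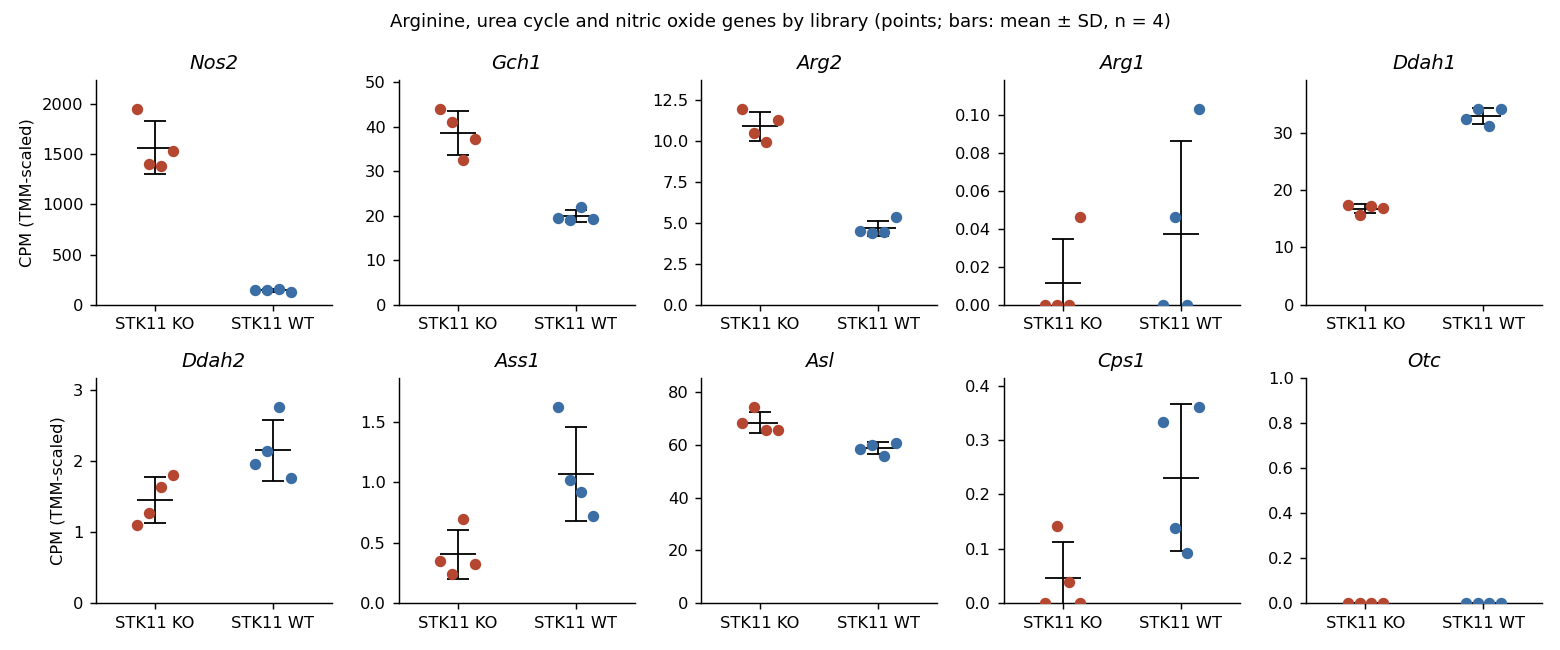
CPM of the 10 genes in each library (points), with STK11 KO left of STK11 WT; bars give mean ± SD of 4 libraries and each panel has its own linear axis from 0. Nos2 lies between 1384 and 1953 CPM in STK11 KO and between 121 and 153 CPM in STK11 WT, while Otc is at 0 in every library.

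Promoter sequences were at hand for 5 of the 10 genes (Otc, Ass1, Gch1, Ddah1 and Ddah2), from RefSeq on GRCm38.p6, as windows of 250 bases before to 50 bases after the annotated start. Gch1, Ass1 and Ddah1 are shown because they are the genes among these 5 with the largest rise and the largest falls. Capitals mark matches on either strand to 5 motifs. The cAMP response element half-site was searched as the letters TGACG. The CCAAT box was searched by the letters of its name. The TATA box search used TATAA as its letters. An E-box was taken to be the palindrome CACGTG and nothing wider. For the Sp1 core the letters were GGGCGG. The windows are chr14:47189364-47189663 (minus strand) for Gch1, chr2:31470020-31470319 (plus strand) for Ass1 and chr3:145758442-145758741 (plus strand) for Ddah1.
Gch1: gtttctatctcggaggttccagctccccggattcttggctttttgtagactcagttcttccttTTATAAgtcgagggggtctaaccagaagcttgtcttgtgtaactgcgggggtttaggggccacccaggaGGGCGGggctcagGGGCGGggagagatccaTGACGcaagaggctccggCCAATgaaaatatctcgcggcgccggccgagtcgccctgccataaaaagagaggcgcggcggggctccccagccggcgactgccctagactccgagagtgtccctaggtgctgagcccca
Ass1: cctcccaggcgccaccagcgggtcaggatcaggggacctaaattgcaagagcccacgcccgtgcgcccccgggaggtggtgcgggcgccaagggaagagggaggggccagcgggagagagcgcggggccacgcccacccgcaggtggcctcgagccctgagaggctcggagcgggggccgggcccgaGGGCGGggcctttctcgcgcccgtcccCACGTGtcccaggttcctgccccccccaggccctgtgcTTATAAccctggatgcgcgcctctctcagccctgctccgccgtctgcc
Ddah1: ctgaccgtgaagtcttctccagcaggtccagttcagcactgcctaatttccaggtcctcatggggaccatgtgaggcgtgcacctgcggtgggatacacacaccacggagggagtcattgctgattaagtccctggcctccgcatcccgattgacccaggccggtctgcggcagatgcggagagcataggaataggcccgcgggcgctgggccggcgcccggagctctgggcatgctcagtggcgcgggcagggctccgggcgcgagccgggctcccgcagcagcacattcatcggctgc

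The Gch1 window held TGACG from position -88 and CCAAT from position -70, counted from the start. In the rat, a cAMP response element and a CCAAT box of the proximal Gch1 promoter are known to mediate its response to cAMP. Of 32851 promoter windows of this length, 20.8% held the half-site on either strand, 37.4% the CCAAT box, 24.9% the TATA box, 7.15% the E-box and 35.7% the Sp1 core. The Ass1 window held CACGTG from position -36, a palindrome that matches on both strands. Both windows also held GGGCGG and TATAA, the latter overlapping its own reverse match. TATAA began at position -186 in Gch1 and at position 4, after the annotated start, in Ass1. The Ddah1 window matched none of the 5 motifs. These matches are letters in a window, and no binding was measured.

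Nos2 had the largest change and the highest level of the 10 genes. It encodes inducible nitric oxide synthase, best known from activated macrophages and from epithelium exposed to cytokines, which makes nitric oxide without needing a rise in calcium. Nos2 (ENSMUSG00000020826.10; GRCm39 chromosome 11, 78811613 to 78851080, plus strand) was at 1953, 1405, 1384 and 1534 CPM in STK11 KO and at 149, 145, 153 and 121 CPM in STK11 WT. Every STK11 KO library stood far above every STK11 WT library, with STK11 KO replicate 1 the highest. The fold was 11.0 (95% interval 9.32 to 13.1; log2 fold change 3.46 ± 0.11, SE; edgeR adjusted p = 1.46e-12). Of all tested genes, 119 (0.868%) rose by at least this log2 fold change, Nos2 included.

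Nos2 took 0.152% ± 0.0220 of all counts in STK11 KO and 0.0146% ± 0.00148 in STK11 WT (SD, n = 4 each). Ranked by counts among all genes it was between place 35 and place 65 in the STK11 KO libraries and between place 1298 and place 1731 in the STK11 WT libraries. The transcript was thus well counted in the parental line too, at 2354 to 3343 counts a library. The defining leukocyte markers were at or near 0: Adgre1 had 0 counts, and Ptprc and Itgam 1 count each, in all 8 libraries together. Of 7 leukocyte markers, Cd68 and Cd14 were the ones that reached 10 counts in a library, and the summed list was at 43.5 to 56.5 CPM in STK11 KO and 77.5 to 88.9 CPM in STK11 WT.

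The 3 tested genes whose log2 CPM followed Nos2 most closely over the 8 libraries were Elmo2 (Pearson r = 0.99981), the glucose transporter gene Slc2a1 (0.99958) and Mxi1 (0.99922). The difference between the groups carries most of such a correlation, and 336 genes had an r above 0.99. Slc2a1 was at 1716 ± 167 CPM in STK11 KO and 428 ± 27.4 CPM in STK11 WT (SD, n = 4 each). Like Nos2, it was highest in STK11 KO replicate 1 and lowest in STK11 WT replicate 4.

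The other nitric oxide synthases were scarce. Nos3, the endothelial enzyme, had 87, 86, 55 and 68 counts in STK11 KO and 23, 30, 28 and 23 counts in STK11 WT. It rose (log2 fold change 1.44 ± 0.23, SE; edgeR adjusted p = 6.47e-06) to 3.41 ± 0.985 CPM in STK11 KO against 1.24 ± 0.127 CPM in STK11 WT (SD, n = 4 each). Nos1, the neuronal enzyme, had 10 counts in STK11 KO and 7 in STK11 WT and was not tested. Of 4 endothelial markers, Cdh5 was higher in STK11 KO too, with 366 counts in STK11 KO and 114 in STK11 WT, and its part in the result was not tested. The others were at or near 0: Kdr had no counts, Tek had 0 counts in STK11 KO and 4 in STK11 WT, and Pecam1 had 11 counts in STK11 KO and 5 in STK11 WT. The summed list, nearly all of it Cdh5, was at 3.42 to 4.81 CPM in STK11 KO and 1.05 to 1.85 CPM in STK11 WT.

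Gch1 rose together with Nos2. It encodes GTP cyclohydrolase, the first enzyme of tetrahydrobiopterin synthesis. Gch1 (ENSMUSG00000037580.11; GRCm39 chromosome 14, 47391352 to 47426870, minus strand) was at 44.0, 41.0, 32.5 and 37.2 CPM in STK11 KO and at 19.5, 19.1, 22.0 and 19.3 CPM in STK11 WT. The groups did not overlap, and STK11 KO replicate 3 was the lowest of its group. The fold was 1.93 (95% interval 1.71 to 2.18; log2 fold change 0.95 ± 0.09, SE; edgeR adjusted p = 1.12e-09).

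Later enzymes of the cofactor's pathway did not share this rise as a group. Of 7 listed tetrahydrobiopterin genes other than Gch1, all tested, 3 fell, 3 did not pass and 1 rose. This is 57.1% passing, against 67.9% of all tested genes. Their median log2 fold change was -0.01, against 0.01 over all tested genes. Pts, which acts after Gch1, fell by 0.42 ± 0.08 and Pcbd1, which takes part in recycling the cofactor, fell by 0.32 ± 0.08 on the log2 scale (SE; edgeR adjusted p = 8.42e-05 for Pts and 0.000656 for Pcbd1). Pcbd2, a relative of Pcbd1, was at 12.9 ± 1.56 CPM in STK11 KO and 4.49 ± 1.35 CPM in STK11 WT (SD, n = 4 each; log2 fold change 1.53 ± 0.15, SE; edgeR adjusted p = 7.34e-09). Gchfr, the feedback regulator of GTP cyclohydrolase, had a log2 fold change of 0.04 with a 95% interval of -0.13 to 0.22. It is named outside the rule for other pathway genes, because it acts on the Gch1 product.

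The arginases differed in whether they were present at all. Arg2, the mitochondrial arginase found in many tissues, was at 11.9, 10.5, 9.90 and 11.3 CPM in STK11 KO and at 4.48, 4.36, 4.40 and 5.36 CPM in STK11 WT. All STK11 KO libraries were above all STK11 WT libraries. Arg2 (ENSMUSG00000021125.7; GRCm39 chromosome 12, 79177551 to 79203075, plus strand) rose 2.34-fold (95% interval 1.99 to 2.77; log2 fold change 1.23 ± 0.12, SE; edgeR adjusted p = 2.14e-09). The gene overlaps Vti1b on the opposite strand by 285 bp, and whether strand was used in counting is unknown here. Vti1b had a log2 fold change of 0.26 ± 0.06 (SE).

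Arg1, the cytosolic arginase of liver and of some macrophages, was all but absent. It had 1 count in the 4 STK11 KO libraries and 3 counts in the 4 STK11 WT libraries, so no fold is given. Arg2 was therefore the arginase with measurable mRNA in both lines. Nos2 and Arg2 both rose, and the counts of Nos2 per count of Arg2 were 134 to 164 in STK11 KO libraries and 22.6 to 34.8 in STK11 WT libraries. Nos2 per count of Gch1 was 34.2 to 44.4 in STK11 KO and 6.29 to 7.64 in STK11 WT. Both ratios were chosen after the values were seen and were not tested. A ratio within a library does not depend on the scaling between libraries.

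Both dimethylarginine dimethylaminohydrolase genes fell. Their enzymes break down asymmetric dimethylarginine, ADMA, a methylated arginine released from proteins that inhibits nitric oxide synthases. Ddah1 (ENSMUSG00000028194.16; GRCm39 chromosome 3, 145464430 to 145600032, plus strand) was at 17.4, 15.7, 17.3 and 16.8 CPM in STK11 KO and at 32.5, 34.2, 31.3 and 34.2 CPM in STK11 WT. The groups lay far apart with little spread inside either. Ddah1 in STK11 KO was at 50.9% of its STK11 WT level (log2 fold change -0.97 ± 0.07, SE; edgeR adjusted p = 3.27e-11). The processed pseudogene Rpl36a-ps2, which overlaps Ddah1 by 321 bp on the same strand, was counted separately and had a log2 fold change of -0.03 ± 0.12 (SE).

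Ddah2 (ENSMUSG00000007039.13; GRCm39 chromosome 17, 35278011 to 35281071, plus strand) was at 1.09, 1.27, 1.63 and 1.81 CPM in STK11 KO and at 1.95, 2.13, 2.75 and 1.75 CPM in STK11 WT. The groups overlapped, since STK11 KO replicate 4 was above STK11 WT replicate 4. The log2 fold change was -0.56 ± 0.22 (SE; edgeR adjusted p = 0.0296). This call was lost with DESeq2 (adjusted p = 0.0673), and edgeR gave an adjusted p of 0.0892 without STK11 KO replicate 1, 0.0794 without STK11 KO replicate 2 and 0.128 without STK11 WT replicate 3. Counts of Ddah1 per count of Ddah2 were 16.0, 12.3, 10.6 and 9.31 in STK11 KO and 16.6, 16.0, 11.4 and 19.5 in STK11 WT. The mean log2 ratio differed by -0.40, STK11 KO minus STK11 WT, and an exact permutation test over the 70 assignments gave a two-sided p of 0.143, where 0.0286 is the smallest possible. An unequal change of the 2 genes was thus not shown.

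Of the arginine-making enzymes, Ass1 was lower and Asl slightly higher in STK11 KO. Their ratio within a library was planned as a comparison but was not tested, because Ass1 had too few counts. Ass1, argininosuccinate synthase, joins citrulline and aspartate and limits the rate at which arginine is rebuilt. Ass1 (ENSMUSG00000076441.10; GRCm39 chromosome 2, 31360219 to 31410684, plus strand) had 7, 5, 18 and 7 counts in STK11 KO and 34, 22, 20 and 14 counts in STK11 WT. As CPM these were 0.347, 0.236, 0.699 and 0.324 in STK11 KO and 1.62, 1.02, 0.917 and 0.721 in STK11 WT. The groups just failed to overlap, with STK11 KO replicate 3 close to STK11 WT replicate 4. Ass1 had enough counts for the test only because of its STK11 WT libraries, the group where it was higher. The p that follows carries this limit. Ass1 fell by 1.36 ± 0.36 on the log2 scale (SE; 95% interval -2.10 to -0.62; edgeR adjusted p = 0.00177), a fall of a gene that was already low in the parental line.

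Asl, argininosuccinate lyase, carries out the next step and releases arginine and fumarate. Asl (ENSMUSG00000025533.16; GRCm39 chromosome 5, 130040099 to 130058088, minus strand) was at 68.3, 74.3, 65.8 and 65.8 CPM in STK11 KO and at 58.5, 60.1, 55.7 and 60.9 CPM in STK11 WT. The groups did not overlap, but the rise was small. The fold was 1.17 (95% interval 1.07 to 1.27; log2 fold change 0.22 ± 0.06, SE; edgeR adjusted p = 0.00198). With libraries scaled by their totals alone the log2 fold change was 0.14 (adjusted p = 0.0465).

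The mitochondrial enzymes that open the urea cycle were not expressed at a level that could be tested. Cps1, carbamoyl phosphate synthetase 1 (ENSMUSG00000025991.9; GRCm39 chromosome 1, 67162185 to 67270418, plus strand), had 0, 3, 1 and 0 counts in STK11 KO and 7, 3, 2 and 7 counts in STK11 WT. The ratio of 4 to 19 counts per library size was 0.199 (exact 95% interval 0.0492 to 0.598, counting error only). With no filter on low counts the fit gave a log2 fold change of -2.20 ± 0.85 (SE; edgeR adjusted p = 0.0264), DESeq2 gave an adjusted p of 0.0666, and limma on the authors' deposited values gave 0.0184. The sum of counts was lower in STK11 KO than in STK11 WT.

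Otc, ornithine transcarbamylase (ENSMUSG00000031173.14; GRCm39 chromosome X, 10118544 to 10187263, plus strand), had 0 counts in all 8 libraries, which allows a level of up to 0.0338 CPM in STK11 KO and 0.0358 CPM in STK11 WT. Arg1 (ENSMUSG00000019987.10; GRCm39 chromosome 10, 24791119 to 24803382, minus strand) completes the liver cycle and is described above. Among hepatocyte markers, Ttr was at 0 and Alb had 3 counts, all in 1 STK11 WT library. Hnf4a and Fah were the 2 of 7 that reached 10 counts in a library. The summed list was at 48.7 to 56.2 CPM in STK11 KO and 93.2 to 97.8 CPM in STK11 WT. Enterocytes also express Cps1 and Otc; of 4 enterocyte markers Cdx2 and Vil1 reached 10 counts in a library, Cdx1 was at 0, and the sum was 56.3 to 61.1 CPM in STK11 KO and 87.6 to 94.5 CPM in STK11 WT. The hepatocyte sum was nearly all Hnf4a and Fah, with Hnf4a at 24.3 CPM in STK11 KO and 58.1 CPM in STK11 WT. The enterocyte sum was nearly all Cdx2, at 57.1 CPM in STK11 KO and 86.3 CPM in STK11 WT. Both sums were lower in STK11 KO, as the few Cps1 counts were, and their part in this was not tested.

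**Figure D2:**
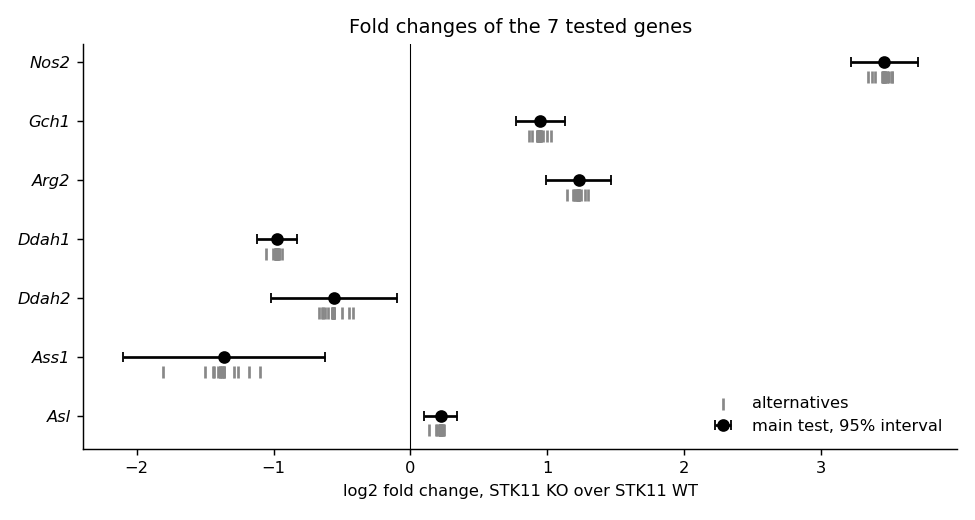
Log2 fold change, STK11 KO over STK11 WT, of the 7 tested genes (points with 95% intervals) and the same value under each alternative processing (grey ticks). Nos2 stands at 3.46, Ddah2 has the interval nearest to 0 among the genes that fell, and no alternative changes a sign.

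Per kilobase of exon, Nos2 led the 10 genes in both lines. On the RPKM scale it was at 356 ± 59.9 in STK11 KO and 32.2 ± 3.25 in STK11 WT (SD, n = 4 each). Asl was second, with 14.2 ± 0.830 RPKM in STK11 KO and 12.2 ± 0.477 RPKM in STK11 WT. The mean level of Nos2 was 25.1 times that of Asl in STK11 KO and 2.65 times in STK11 WT. In STK11 KO, Arg2 (7.64 RPKM), Gch1 (6.19), Ddah1 (4.22), Ddah2 (0.910) and Ass1 (0.166) followed. In STK11 WT the order was Ddah1 (8.30 RPKM), Arg2 (3.26), Gch1 (3.20), Ddah2 (1.35) and Ass1 (0.443). Arg2 and Gch1 overlapped in both lines and could not be ranked, and the same held for Cps1, Arg1 and Otc at the foot of the order. Ddah1 stood above Arg2 and Gch1 in STK11 WT and below both in STK11 KO.

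**Figure D3:**
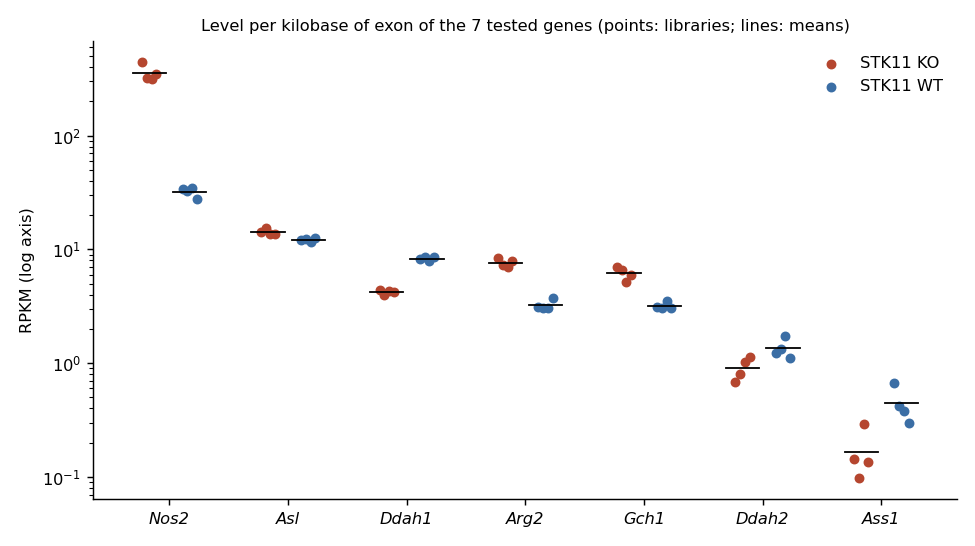
Level of the 7 tested genes in RPKM on a log axis, STK11 KO left of STK11 WT for each gene; points are libraries and lines are means. Nos2 lies above every other gene in both lines, and Ddah1 is above Arg2 and Gch1 in STK11 WT but below them in STK11 KO.

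Other genes around arginine and nitric oxide, 85 in 9 lists, moved in both directions. Of 70 that could be tested, 29 fell, 25 rose and 16 did not pass, and the median log2 fold change was -0.0037, against 0.01 over all tested genes. This is 77.1% passing, against 67.9% of all tested genes.

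Transporters of arginine and ornithine held the largest rises of these lists, those of Slc6a14 and Slc7a2. Both genes had enough counts for the test only because of STK11 KO, the group where they were higher. Of 13 transporters listed, 11 were tested, 5 rose, these genes among them, 2 fell and 4 did not pass. This is 63.6% passing, against 67.9% of all tested genes. The list's median log2 fold change was 0.19. Slc6a14, a plasma membrane carrier of neutral and basic amino acids, had 91, 125, 195 and 117 counts in STK11 KO and 0, 1, 1 and 0 counts in STK11 WT. The ratio per library size was 249 (exact 95% interval 68.7 to 2064, counting error only). Slc3a2, the heavy chain shared by several amino acid exchangers, was at 343 ± 18.9 CPM in STK11 KO and 141 ± 4.59 CPM in STK11 WT (SD, n = 4 each; edgeR adjusted p = 1.17e-15). Its light chain partners for basic amino acids, Slc7a7 and Slc7a6, fell by 0.56 ± 0.09 and 0.23 ± 0.06 on the log2 scale (SE; edgeR adjusted p = 8.44e-06 for Slc7a7 and 0.00111 for Slc7a6).

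Arginine carriers of the CAT family are named here after their values were seen. Slc7a1, the widely expressed carrier, had a log2 fold change of 0.06 with a 95% interval of -0.22 to 0.33 and was at 133 ± 27.6 CPM in STK11 KO and 128 ± 4.36 CPM in STK11 WT (SD, n = 4 each). Slc7a2, which is induced together with Nos2 in activated macrophages, had 20, 13, 27 and 21 counts in STK11 KO and 1, 1, 0 and 0 counts in STK11 WT, a ratio per library size of 38.2 (exact 95% interval 10.3 to 321, counting error only; edgeR adjusted p = 9.03e-08). Slc7a2, like Slc6a14, had enough counts for the test only because of STK11 KO, the group where it was higher. At 0.906 ± 0.199 CPM (SD, n = 4) Slc7a2 stayed scarce in STK11 KO beside Slc7a1. Slc7a3, the remaining CAT gene listed, had 8, 14, 16 and 15 counts in STK11 KO and 0, 0, 6 and 1 counts in STK11 WT. The groups did not overlap, and the ratio per library size was 7.15 (exact 95% interval 3.24 to 18.6, counting error only), but counts were too few for the test.

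Enzymes that use arginine or ornithine in other ways moved in both directions. Of 9 tested, 5 rose and 4 fell, where 34.4% of all tested genes rose and 33.5% fell. The list's median log2 fold change was 0.27. Odc1, ornithine decarboxylase, which opens polyamine synthesis, was at 1492 ± 125 CPM in STK11 KO and 609 ± 20.1 CPM in STK11 WT (SD, n = 4 each; edgeR adjusted p = 2.39e-14). Aldh18a1, which makes the precursor of proline and ornithine from glutamate, rose by 0.55 ± 0.05 on the log2 scale (SE; edgeR adjusted p = 1.36e-09). Gatm and Gamt, the enzymes that make creatine from arginine and glycine, fell by 1.02 ± 0.10 and 1.19 ± 0.14 on the log2 scale (SE; edgeR adjusted p = 2.43e-09 for Gatm and 7.61e-08 for Gamt). Gatm was at 11.1 ± 1.59 CPM in STK11 KO and 22.4 ± 1.21 CPM in STK11 WT, and Gamt at 4.41 ± 1.08 CPM in STK11 KO and 10.1 ± 0.464 CPM in STK11 WT (SD, n = 4 each).

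Genes around the first steps of the cycle, with Cad of pyrimidine synthesis counted among them, were measured although Cps1 and Otc were near 0. Of 8 listed, 6 were tested, 3 rose and 2 fell, where 34.4% of all tested genes rose and 33.5% fell. The list's median log2 fold change was 0.12. Nags, whose product activates CPS1, had 0 counts in every library. Sirt3 and Sirt5, mitochondrial deacylases, rose by 0.78 ± 0.10 and 0.52 ± 0.11 on the log2 scale (SE; edgeR adjusted p = 4.02e-07 for Sirt3 and 0.000291 for Sirt5). Car5b, a mitochondrial carbonic anhydrase, fell by 0.37 ± 0.06 (SE; edgeR adjusted p = 7.92e-06). Cad, which makes carbamoyl phosphate for pyrimidines in the cytosol, fell by 0.34 ± 0.06 (SE; edgeR adjusted p = 9.82e-06), to 143 ± 9.68 CPM in STK11 KO against 181 ± 6.89 CPM in STK11 WT (SD, n = 4 each).

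Partners of the synthases and their regulators also went both ways. Of 10 tested synthases and partners, Nos3 included, 2 rose and 4 fell. This is 60.0% passing, against 67.9% of all tested genes, of which 34.4% rose and 33.5% fell. The list's median log2 fold change was -0.07. Hsp90aa1, an HSP90 chaperone gene, was at 752 ± 20.2 CPM in STK11 KO and 1328 ± 42.3 CPM in STK11 WT (SD, n = 4 each; edgeR adjusted p = 7.9e-12). Hsp90ab1, the other HSP90 gene of the list, is named outside the rule. It was more abundant, at 3578 ± 143 CPM in STK11 KO and 3507 ± 104 CPM in STK11 WT (SD, n = 4 each), and did not pass. Nos1ap, an adaptor of the neuronal enzyme, fell by 1.11 ± 0.26 on the log2 scale (SE; edgeR adjusted p = 0.000602). Of 10 tested genes known to act on Nos2 transcription, 5 rose, 2 fell and 3 did not pass; the list's median log2 fold change was 0.23.

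Among these regulators, Hif1a, the hypoxia-inducible factor subunit, was at 1029 ± 54.1 CPM in STK11 KO and 595 ± 11.0 CPM in STK11 WT, and Cebpb, a leucine zipper factor, at 108 ± 13.2 CPM in STK11 KO and 62.1 ± 4.13 CPM in STK11 WT (SD, n = 4 each; edgeR adjusted p = 1.9e-11 for Hif1a and 2.5e-09 for Cebpb). The interferon regulatory factor gene Irf1 and the interferon gamma receptor gene Ifngr1 fell by 0.54 ± 0.07 and 0.53 ± 0.06 on the log2 scale (SE; edgeR adjusted p = 5.36e-07 for Irf1 and 1.31e-08 for Ifngr1).

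The protein arginine methyltransferase genes, which make methylated arginine, went both ways. Of 10 protein arginine methyltransferase and ADMA breakdown genes, 8 were tested, 3 rose and 5 fell. Over all tested genes 34.4% rose and 33.5% fell. The list's median log2 fold change was -0.18. Prmt2 rose by 0.46 ± 0.07, and Prmt3 and Carm1 fell by 0.43 ± 0.07 and 0.22 ± 0.05 on the log2 scale (SE; edgeR adjusted p = 8.18e-06 for Prmt2, 3.64e-06 for Prmt3 and 0.000764 for Carm1). Prmt9 rose by 0.34 ± 0.11 (SE; edgeR adjusted p = 0.0104), a call lost without STK11 KO replicate 3 (0.20; adjusted p = 0.0683) and with scaling by library totals alone (0.26; adjusted p = 0.0651). Agxt2, the other known route of ADMA breakdown and the only breakdown gene of the list, had 0 counts in every library, so the tested genes were all methyltransferases.

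On the receiving side of nitric oxide, the soluble guanylate cyclase genes had no counts. Gucy1a1, Gucy1a2, Gucy1b1, Gucy1b2 and the kinase gene Prkg1 had 0 counts in all 8 libraries and are named outside the rule for that reason. The other kinase gene of the list that is activated by cyclic GMP, Prkg2, was abundant, at 346.5 ± 17.5 CPM in STK11 KO and 325.6 ± 8.56 CPM in STK11 WT (SD, n = 4 each), and did not pass (95% interval of the log2 fold change -0.02 to 0.20). Of the 5 effector genes that could be tested, 1 rose and 3 fell, where 34.4% of all tested genes rose and 33.5% fell. The list's median log2 fold change was -0.23. Vasp, an actin regulator phosphorylated by cyclic nucleotide-dependent kinases, rose by 0.79 ± 0.05 on the log2 scale (SE; edgeR adjusted p = 8.25e-12). Adh5, which reduces S-nitrosoglutathione, fell by 0.34 ± 0.06, and Cyb5r3, a reductase that acts on haem proteins, fell by 0.29 ± 0.05 (SE; edgeR adjusted p = 7.88e-06 for Adh5 and 3.96e-05 for Cyb5r3).

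The peptidylarginine deiminases, which convert arginine in proteins to citrulline, fell in 4 of 4 tested genes of 5 listed, where 33.5% of all tested genes fell; the list's median log2 fold change was -0.39. The 4 genes lie close together on chromosome 4. Padi3 was at 0.719 ± 0.0790 CPM in STK11 KO and 4.23 ± 0.704 CPM in STK11 WT (SD, n = 4 each; log2 fold change -2.54 ± 0.21, SE; edgeR adjusted p = 2.63e-10). Padi1 fell by 0.44 ± 0.06 on the log2 scale (SE; edgeR adjusted p = 4.84e-07).

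**Figure D4:**
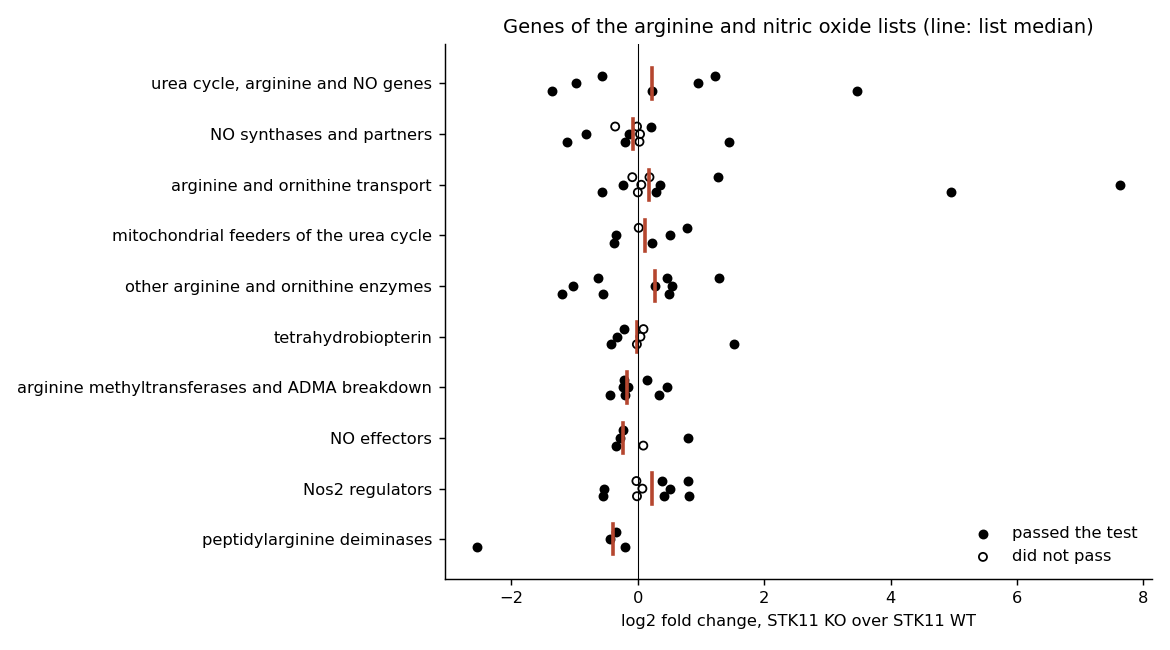
Log2 fold change, STK11 KO over STK11 WT, of each tested gene in the 10 genes described here (top) and in 9 lists of related genes; filled points passed the test, open points did not, and lines are list medians. Medians lie between -0.39 and 0.27, while single genes such as Nos2 and Slc6a14 lie far outside that range.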

How the data were processed

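RNA of 8 Lacun3 cultures was sequenced as paired reads of 51 bp from stranded mRNA libraries, per the labels' protocols. Tools listed in the submitters' processing notes, with no role given, are STAR 2.7.9a, featureCounts 1.6.0, FastQC 0.11.8, limma and edgeR, and the build is GRCm39. The authors deposited raw counts per gene and a second table of log2 CPM in voom's form, used only in an alternative. How strand and multi-mapping reads were handled is not stated there.

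Raw counts were tested with edgeR 4.0.16 (R 4.3.3; filterByExpr, TMM, glmQLFit with robust estimation, glmQLFTest; genotype only), with Benjamini-Hochberg adjustment over 13707 genes and a threshold of 0.05. SE is the absolute log2 fold change over the square root of F. CPM uses TMM-scaled library sizes, and RPKM divides it by exon length from GENCODE M21 (GRCm38; lengths matched by gene ID for 129 of 129 genes). Ratios of low counts have exact (Clopper-Pearson) intervals, and a group at 0 allows up to 3 counts; both cover counting error only. Exact permutation tests used scipy 1.17.1. The ratios planned for Arg2 over Arg1, Ass1 over Asl and Cps1 over Cad were not tested. In each, a gene had under 10 counts in a library. The fit was tested on a single simulated set of counts in which 200 of 13707 genes were changed. In the data 67.9% of tested genes passed, so the simulated setting differs from the data. In that set it recovered 70.8% of 1.5-fold changes, 88.4% of 2-fold changes and 98.5% of 4-fold changes, and 5.49% of its calls were false. These shares vary with the random draw and need not hold where most genes change. Changes as small as that of Asl were not simulated.

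The 10 genes and the lists were chosen with earlier results of these data known. All 10 are named; each other list gives at most 2 genes per direction, by smallest adjusted p, plus Nos1, Nos3 and Cad (1 gene so chosen is not reported here); the genes most like Nos2 were ranked by Pearson r of log2 CPM. Alternatives were other scalings, filters and tests (DESeq2 1.42.0, limma 3.58.1), the replicate number as a block, and leaving out each library. The labels call the samples biological replicates; p-values measure the spread between these cultures.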

Additional observations from a re-analysis of the deposited data

Results flagged for a closer look

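Among 78 groups of 4 libraries (tested genes named by the rule, each in STK11 KO and in STK11 WT), 2 held a library far from the others, where chance alone flags about 1 in 20. Arg2 was at 5.36 CPM in STK11 WT replicate 4 and at 4.36 to 4.48 CPM in the other STK11 WT libraries. Gch1 was at 22.0 CPM in STK11 WT replicate 3 and at 19.1 to 19.5 CPM in the other STK11 WT libraries. Both values lay below every STK11 KO library. Without the library in question the log2 fold change was 1.30 for Arg2 and 1.00 for Gch1.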

How the results depend on the processing

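The 4 rises among the 10 genes kept their direction and passed under all 17 alternatives, with log2 fold changes of 3.35 to 3.52 for Nos2, 1.14 to 1.30 for Arg2, 0.86 to 1.03 for Gch1 and 0.14 to 0.25 for Asl. Ddah1 and Ass1 passed wherever they were tested (-1.06 to -0.94 over 17 alternatives and -1.81 to -1.10 over 16). Ass1, which met the main filter only with its STK11 WT libraries, dropped out where 1 CPM was required in 4 libraries. Ddah2 lost its call in 4 alternatives, named beside its values, and ranged from -0.67 to -0.42. The number of genes that fell among the 10 was therefore 2 to 4, the highest where Cps1 was tested and passed. Over all tested genes, 3909 to 4990 rose and 4308 to 5258 fell. Scaling by library totals alone moved the log2 fold changes of the named genes down by similar amounts, as for Nos2 (3.38 against 3.46). Of 544 values for 32 other named genes, 542 kept direction and call, and the 2 exceptions concern Prmt9. The log2 ratio of Ddah1 over Ddah2 differed by -0.55 to -0.29 when a library was left out. Replicate numbers did not pair the libraries: deviations of same-numbered libraries correlated at -0.0985 to 0.0356. With the replicate block, 4 of the 10 genes rose and 3 fell, as without it. Arg1 and Otc had too few counts to be tested in the main fit, and Cps1 and Ass1 are limited by low counts in every library.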
